A study of Mus musculus with 5 samples.

Results

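10 genes that regulate or mark early blood cells were followed in mouse macrophages: Cd34, Kit, Gata2, Gata1, Myb, Meis1, Hoxa9, Gfi1, Cebpe and Plac8. They were chosen by name, with earlier results of these data known, as 10 of the 20581 gene symbols in the deposited count table. Where a symbol had several transcript entries the one with the highest mean count was kept. The cells were bone marrow-derived macrophages (BMDMs), grown from bone marrow cells of C57BL/6 background mice aged 7 to 8 weeks by culture with 25 ng/ml of the growth factor M-CSF for 7 days. The libraries were NICcA (n = 2, replicates 2 and 3) and wild type (n = 3, replicates 1 to 3), and their RNA was sequenced on an Illumina instrument. The labels do not spell NICcA out, nor do they name a promoter or Cre line. The name is read here as conditional expression of a Notch intracellular domain, which the labels do not state. Whether replicates were separate mice or separate dishes is not in the labels either; the p-values therefore reflect library-to-library spread, part or all of which may be technical.

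Blood cells arise from stem and progenitor cells of the bone marrow, which carry surface proteins such as Kit and Cd34 and depend on transcription factors such as Myb, Gata2 and Meis1. As progenitors commit to the granulocyte lineage, factors such as Gfi1 and Cebpe come into play, and most of the stem cell programme is switched off. In a culture with M-CSF, progenitors divide and mature into macrophages, so transcripts of the progenitor programme are usually scarce in the mature cells.

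The libraries held 64870248 and 68110891 counts in NICcA and 57442309 to 76562905 counts in wild type. All 9 macrophage markers found had counts above 0 in every library, with a summed level of 11938 and 12509 CPM (counts per 1000000 of the scaled library) in NICcA and 13807 to 20300 CPM in wild type. Lyz2, the macrophage lysozyme, carried most of that sum; without it the markers summed to 2635 and 2098 CPM in NICcA and 2286, 2109 and 2783 CPM in wild type, which overlap. The median log2 fold change of the 9 was -0.16, with 4 positive. At an unadjusted p below 0.05 in edgeR, 3 were lower and 1 higher, beside 6.83% lower and 7.68% higher over all genes. The 3 were Cd68 (log2 fold change -0.65, SE 0.22), Mertk (-0.57, SE 0.22) and Lyz2 (-0.55, SE 0.23), each without overlap. The 1 was Fcgr1, the high-affinity IgG receptor (log2 fold change 0.91, SE 0.26, edgeR adjusted p = 0.29). Fcgr1 alone passed DESeq2 (adjusted p = 0.041), beside 2.09% of entries that passed and were higher in NICcA. Hes1, a direct target of Notch signalling, had 185 and 125 counts in NICcA, against 1, 5 and 6 counts in wild type (log2 fold change 5.18, SE 0.54; edgeR quasi-likelihood adjusted p = 0.13, DESeq2 adjusted p = 1.1e-11). Nrarp, another Notch target, also passed DESeq2 alone (log2 fold change 2.24, SE 0.54; edgeR adjusted p = 0.28, DESeq2 adjusted p = 0.046). Hey1, a further Notch target, did not follow them, with 0.823 and 0.887 CPM in NICcA, against 0.798, 1.61 and 3.11 CPM in wild type (log2 fold change -1.11, SE 0.57; edgeR adjusted p = 0.40), and the groups overlapped for Hey1 and for Dtx1. Notch1 reached 84.2 and 87.6 CPM in NICcA, against 78.5, 68.1 and 67.4 CPM in wild type. A count over the whole Notch1 transcript does not show whether it came from an intracellular-domain transgene.

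Most of the 10 genes were higher in NICcA than in wild type macrophages, and none passed the main test. Of the 10, 8 passed the filter on low counts (0.147 CPM in at least 2 libraries) and were above that minimum in all 5 libraries; Gata1 and Hoxa9 did not pass it. All 8 log2 fold changes of NICcA over wild type were positive, with a median of 1.48, beside a median of 0.0028 over the 13339 genes tested. In 7 of the 8, every gene but Kit, both NICcA libraries lay above all 3 wild type libraries, as they did in 18.4% of all genes tested. At an adjusted p below 0.05 in edgeR's quasi-likelihood test with Benjamini-Hochberg adjustment, 0 of the 8 passed, beside 0.0219% of the 18267 transcript entries tested. At an unadjusted p below 0.05, 5 of the 8 were higher in NICcA (Myb, Gfi1, Gata2, Cebpe and Plac8), beside 7.68% of genes. With DESeq2, 1 of the 8 passed, Plac8, beside 2.09% of entries that passed and were higher in NICcA. Because the genes were chosen with earlier results of these data known, the comparisons with all genes are descriptions only. In bulk RNA, fewer cells of a type and less RNA per cell cannot be told apart.

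**Figure D1:**
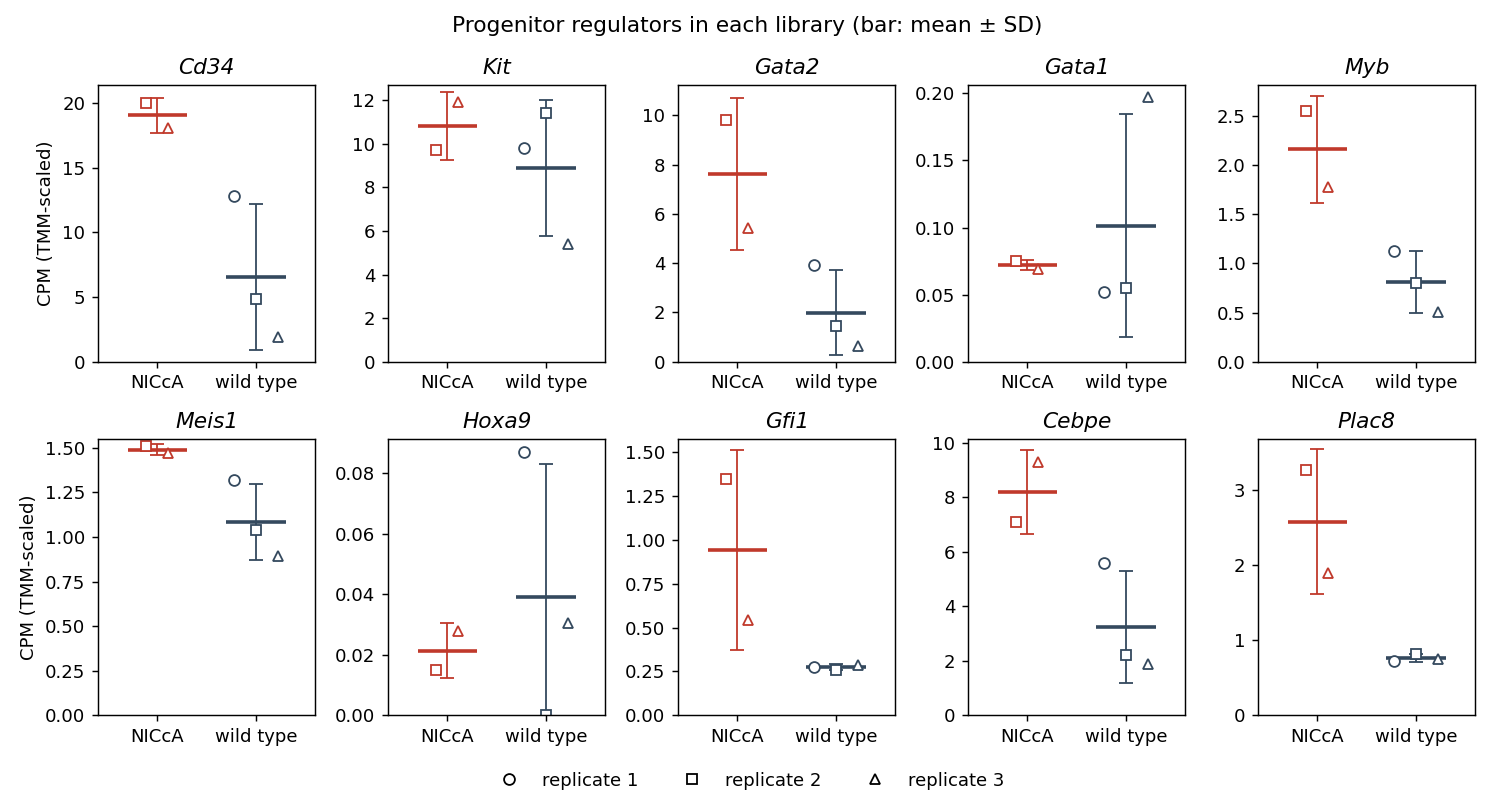
CPM of each of the 10 genes in each library, on linear axes of their own scale. Points are libraries (circle replicate 1, square replicate 2, triangle replicate 3), the thick bar is the mean and the error bar the SD, with NICcA (n = 2) left of wild type (n = 3); the groups overlap for Kit, Gata1 and Hoxa9 and do not overlap for the other 7 genes.

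Cd34, a sialomucin on progenitors and endothelium, had 20.0 and 18.0 CPM in NICcA, against 12.8, 4.86 and 1.90 CPM in wild type replicates 1, 2 and 3. Both NICcA libraries were above all wild type libraries, and the wild type libraries were spread over a 6.75-fold range. The log2 fold change was 1.55 (SE 0.69; edgeR adjusted p = 0.36), and it was 2.50 without wild type replicate 1 and 1.11 without wild type replicate 3. Kit, the receptor for stem cell factor, had 9.69 and 11.9 CPM in NICcA, against 9.80, 11.4 and 5.42 CPM in wild type. The groups overlapped, with wild type replicate 3 below the other 4 libraries. The log2 fold change of Kit was 0.28 (SE 0.32; edgeR adjusted p = 0.68), and it was 0.02 without wild type replicate 3.

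Gata2, the zinc-finger factor needed by stem cells and by mast cell precursors, had 9.81 and 5.45 CPM in NICcA, against 3.92, 1.45 and 0.622 CPM in wild type. The groups did not overlap, NICcA replicate 2 was the highest library, and the wild type libraries spanned a 6.30-fold range. Its log2 fold change was 1.94 (SE 0.71; edgeR adjusted p = 0.33), and it was 2.88 without wild type replicate 1. Gata1, the related factor of erythroid cells, megakaryocytes and mast cells, was near the detection limit, with 5 and 5 counts in NICcA, against 3, 4 and 13 counts in wild type. Its groups overlapped and it was not tested.

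Myb, a factor that keeps progenitors dividing, had 2.54 and 1.77 CPM in NICcA, against 1.13, 0.805 and 0.501 CPM in wild type. Both NICcA libraries were above the wild type ones, and the log2 fold change was 1.41 (SE 0.39; edgeR adjusted p = 0.29). Meis1, a homeodomain partner of Hox proteins in stem cells, had 1.51 and 1.47 CPM in NICcA, against 1.32, 1.04 and 0.895 CPM in wild type. The NICcA libraries were again above all others, by a small margin, and the log2 fold change was 0.46 (SE 0.27; edgeR adjusted p = 0.45). Hoxa9, the Hox factor that works with Meis1, had 1 and 2 counts in NICcA, against 5, 0 and 2 counts in wild type. It was not tested, and the 0 in wild type replicate 2 allows up to 3 counts, or 0.0409 CPM; this limit covers counting error only.

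Gfi1, a zinc-finger repressor of stem cells and neutrophil precursors, had 1.35 and 0.541 CPM in NICcA, against 0.278, 0.259 and 0.288 CPM in wild type. The wild type libraries lay close together, within a 1.11-fold range, and the NICcA libraries differed 2.49-fold from each other. The log2 fold change was 1.77 (SE 0.47; edgeR adjusted p = 0.28), and it was 0.97 without NICcA replicate 2. Cebpe, the C/EBP factor of late granulocyte maturation, had 7.11 and 9.27 CPM in NICcA, against 5.60, 2.22 and 1.88 CPM in wild type. NICcA replicate 3 was the highest library, and the groups did not overlap. The log2 fold change was 1.34 (SE 0.48; edgeR adjusted p = 0.33), and it was 2.0 without wild type replicate 1.

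Plac8, a small cysteine-rich protein of myeloid progenitors and other blood cells, gave the smallest unadjusted p of the 8 genes in edgeR, 0.0011. It had 3.26 and 1.90 CPM in NICcA, against 0.729, 0.819 and 0.744 CPM in wild type. The lower NICcA library was 2.32 times the highest wild type library, and the wild type libraries lay within a 1.12-fold range. The log2 fold change was 1.75 (SE 0.30; edgeR adjusted p = 0.27), and DESeq2 gave the same log2 fold change with an adjusted p of 0.0012. For the other 7 genes the DESeq2 adjusted p ran between 0.055 (Myb) and 0.73 (Kit).

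**Figure D2:**
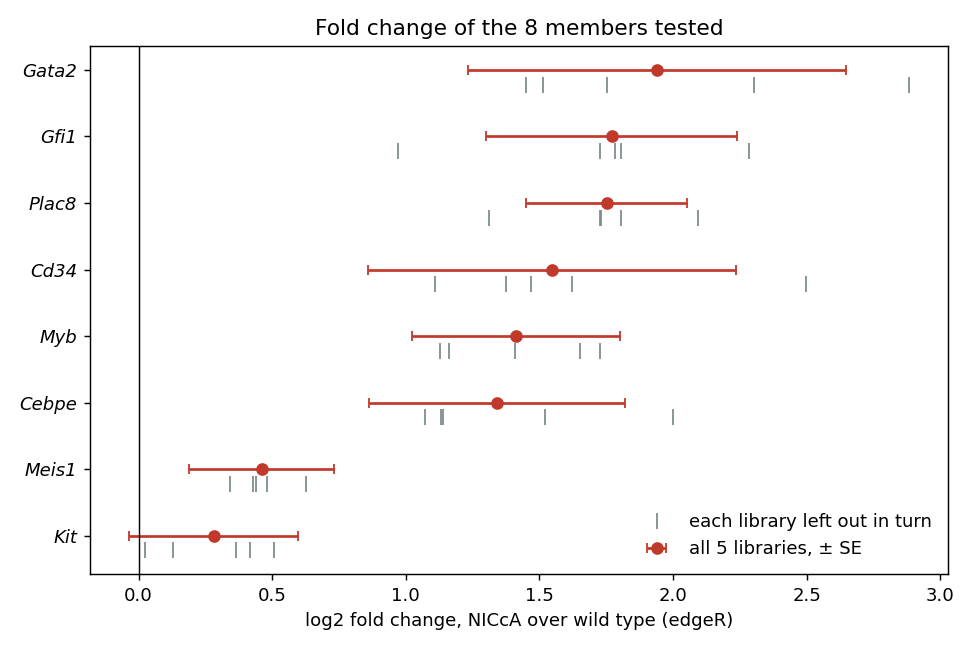
Log2 fold change of NICcA over wild type for the 8 genes tested, from edgeR. Points are the fit to all 5 libraries with the SE as a bar, ticks are the values with each library left out in turn, and all ticks lie above 0, from 0.02 for Kit to 2.88 for Gata2.

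The promoters of the 2 annotated starts of Plac8 are shown because Plac8 was the 1 gene that passed a test. Sequences are from RefSeq on GRCm38.p6, run from 250 bases before to 50 after the start, and lie on the minus strand of chromosome 5, at chr5:100572156-100572455 and chr5:100563047-100563346. Capitals mark TGGGAA or its reverse complement TTCCCA, the core letters of the Rbpj site through which Notch acts.
Plac8 start 1: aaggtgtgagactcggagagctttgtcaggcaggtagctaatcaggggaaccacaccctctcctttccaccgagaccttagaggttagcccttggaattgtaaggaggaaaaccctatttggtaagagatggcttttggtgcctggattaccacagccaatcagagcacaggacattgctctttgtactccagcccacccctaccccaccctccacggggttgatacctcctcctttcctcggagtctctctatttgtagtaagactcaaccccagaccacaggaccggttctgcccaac
Plac8 start 2: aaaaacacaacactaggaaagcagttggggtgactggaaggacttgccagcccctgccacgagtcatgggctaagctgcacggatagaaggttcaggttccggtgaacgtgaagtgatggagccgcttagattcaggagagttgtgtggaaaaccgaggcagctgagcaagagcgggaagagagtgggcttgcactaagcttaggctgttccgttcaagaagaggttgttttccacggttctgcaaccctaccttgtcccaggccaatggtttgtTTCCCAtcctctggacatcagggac
The letters were found downstream of the second start and not in the window of the first. Windows matched 9 of the 10 genes, 13 in all, and Cebpe was not matched. On either strand TGGGAA was found in 3 of the 13 windows, those of Meis1, Hoxa9 and Plac8, beside 25.6% of all 32851 promoter windows of that length. The letters AGATAA, 1 form of the site that GATA factors bind, were found on either strand in 0 of the 13, beside 11.2% of all windows. Other forms of that site were not searched. These matches are descriptions of sequence only.

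On the length-corrected RPKM scale, Cd34 (6.49 and 5.88) and Cebpe (4.88 and 6.40) were highest in the NICcA libraries and overlapped each other. Plac8 followed with 3.99 and 2.33 RPKM, then Gata2 with 2.58 and 1.44 RPKM and Kit with 1.59 and 1.96 RPKM, and each of these overlapped the next. Myb, Meis1 and Gfi1 were each below 1 RPKM in both NICcA libraries, at means of 0.487, 0.369 and 0.281 RPKM. In wild type the mean levels ran Cebpe 2.08, Cd34 1.99, Kit 1.35, Plac8 0.864, Gata2 0.492, Meis1 0.249, Myb 0.170 and Gfi1 0.0758 RPKM. Plac8 and Gata2 thus stood above Kit in NICcA and below it in wild type by mean RPKM; the difference in order was not tested. The transcript entries of a gene share reads: in the 5 tested genes with a second entry, that entry carried 94.5% to 99.3% of the counts of the kept one.

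The libraries within a group were not alike for these genes. Wild type replicate 1 was the highest wild type library for 5 of the 8 genes, and wild type replicate 3 was the lowest for 6 of the 8. NICcA replicate 2 was above NICcA replicate 3 in 6 of the 8. The median of log2 CPM minus each gene's wild type mean was 1.85 and 1.23 in NICcA, against 0.41, -0.03 and -0.60 in wild type replicates 1, 2 and 3. Proliferation genes showed a similar order, with medians of 0.99 and 0.87 in NICcA and 0.76, 0.0031 and -0.80 in wild type. All 8 proliferation genes had positive log2 fold changes, with a median of 0.80. Both NICcA libraries lay above all wild type libraries for 6 of the 8, beside 18.4% of all genes tested. At an unadjusted p below 0.05 in edgeR, 2 of the 8 were higher, beside 7.68% of genes. At the adjusted threshold 0 passed edgeR and 1 passed DESeq2, beside 2.09% of entries that passed DESeq2 and were higher in NICcA. That gene was Mcm2, a subunit of the replicative helicase (log2 fold change 0.98, SE 0.30, edgeR adjusted p = 0.30, DESeq2 adjusted p = 0.049). Wild type replicate 1 had a proliferation level near that of the NICcA libraries. The part of proliferation in the values of the progenitor genes was not tested.

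Mast cell and basophil markers, which Gata2 and Kit accompany in those cells, summed to 51.4 and 24.7 CPM in NICcA. In wild type they summed to 17.1, 8.53 and 4.07 CPM. Of the 10, 5 were above 0 in every library, and Mcpt4 had 0 counts in both NICcA libraries and 0, 0 and 1 counts in wild type. All 6 tested had positive log2 fold changes, with a median of 1.74. Both NICcA libraries lay above all wild type libraries for 5 of the 6, beside 18.4% of all genes tested. Cpa3, a mast cell protease, had 22.7 and 15.8 CPM in NICcA, against 10.3, 5.40 and 2.31 CPM in wild type (log2 fold change 1.69, SE 0.56; edgeR adjusted p = 0.32, DESeq2 adjusted p = 0.049). Its order of libraries was that of Gata2 and Cd34. Neutrophil markers had positive log2 fold changes in 14 of the 15 tested, with a median of 0.60. Both NICcA libraries lay above all wild type libraries for 6 of the 15, beside 18.4% of all genes tested. The summed level of the neutrophil markers was 642 and 757 CPM in NICcA and 691 to 1025 CPM in wild type. It was mostly Mmp8, the neutrophil collagenase and the 1 tested marker with a negative log2 fold change. Without Mmp8 the sum was 158 and 146 CPM in NICcA, against 96.3, 85.6 and 118 CPM in wild type. Counts were above 0 in every library for 14 of the 16 found. Mpo had 0 and 12 counts in NICcA, against 1, 3 and 11 counts in wild type. Ms4a3 (log2 fold change 1.40, SE 0.43), Prtn3 (1.14, SE 0.45) and Ctsg (1.14, SE 0.66), all at low levels, were among the 6 without overlap. Elane overlapped (0.46, SE 0.59). Ngp, a neutrophil granule protein, had 27.6 and 31.8 CPM in NICcA, against 17.1, 12.5 and 20.7 CPM in wild type (log2 fold change 0.83, SE 0.22, edgeR adjusted p = 0.28, DESeq2 adjusted p = 0.035). The groups overlapped for Camp and Lcn2, 2 other granule proteins of the list.

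Dendritic cell markers had positive log2 fold changes in 8 of 9, with a median of 1.10. Both NICcA libraries lay above all wild type libraries for 6 of the 9, beside 18.4% of all genes tested. The dendritic cell markers summed to 234 and 130 CPM in NICcA and to 74.2 to 128 CPM in wild type, with all 9 above 0 in every library. Ccr7, a chemokine receptor of migrating dendritic cells, was the most abundant, and without it the sum was 67.6 and 60.3 CPM in NICcA, against 44.6, 50.3 and 50.5 CPM in wild type. Dpp4, a surface peptidase, had 12.2 and 9.01 CPM in NICcA, against 4.30, 2.42 and 0.683 CPM in wild type (log2 fold change 2.11, SE 0.65; edgeR adjusted p = 0.30, DESeq2 adjusted p = 0.032). Clec9a, a receptor of cross-presenting dendritic cells picked here after its values were seen, was the 1 with a negative log2 fold change, -1.14 (edgeR adjusted p = 0.36). Lymphocyte markers summed to 2.41 and 2.95 CPM in NICcA and to 1.64 to 1.81 CPM in wild type. Stromal and endothelial markers summed to 120 and 148 CPM in NICcA and to 170 to 191 CPM in wild type, mostly from Vwf, the von Willebrand factor. Without Vwf the sum was 11.9 and 10.7 CPM in NICcA, against 24.7, 9.42 and 6.25 CPM in wild type, which overlap. Pecam1, a surface protein of endothelium and of some blood cells, had 9.77 and 8.00 CPM in NICcA, against 6.09, 1.97 and 1.81 CPM in wild type, with no overlap (log2 fold change 1.44, SE 0.54; edgeR adjusted p = 0.33). Cdh5, the cadherin of endothelial junctions, had 1.63 and 2.12 CPM in NICcA, against 2.41, 6.73 and 3.87 CPM in wild type (log2 fold change -1.21, SE 0.45; edgeR adjusted p = 0.33). The summed level of erythroid and megakaryocyte markers overlapped between the groups (90.7 and 78.3 CPM in NICcA, 49.4 to 97.7 CPM in wild type). Without Tfrc, the most abundant, it was 47.8 and 37.8 CPM in NICcA, against 39.0, 25.8 and 47.3 CPM in wild type. Of the 9 tested, 2 (Hbb-b2 and Alas2) were higher in NICcA without overlap, beside 18.4% of all genes. Itgb3 alone was lower without overlap (log2 fold change -0.75). Hbb-b2 had 82 and 42 counts in NICcA, against 15, 12 and 0 counts in wild type (log2 fold change 2.68, SE 0.996, edgeR adjusted p = 0.33). The part of these cell types in the values of the progenitor genes was not tested.

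**Figure D3:**
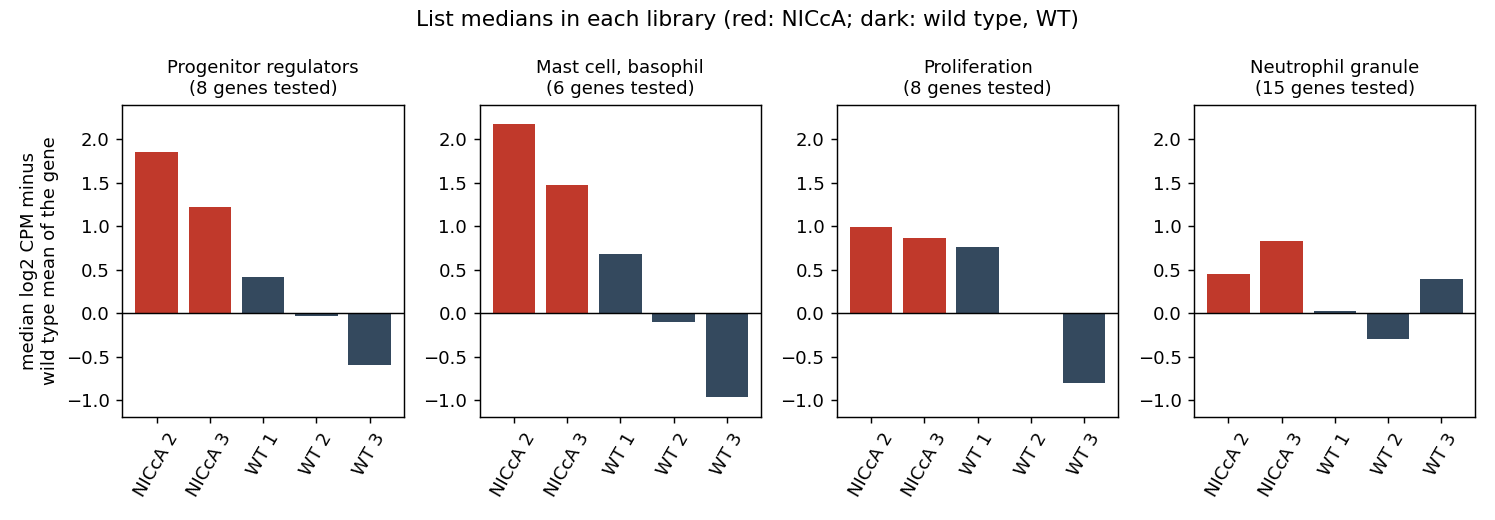
Median over each list of log2 CPM minus the gene's wild type mean, per library, for the 8 progenitor genes tested, 6 mast cell and basophil genes, 8 proliferation genes and 15 neutrophil granule genes. NICcA bars (red) are left of wild type (dark); wild type replicate 1 stands at 0.41 for the progenitor genes and at 0.76 for proliferation.

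Wider lists of haematopoietic factors and of progenitor surface genes had medians near that of all genes. Both also hold genes abundant in these macrophages, such as Cebpb (590 and 601 CPM in NICcA) and Csf2rb (896 and 680 CPM in NICcA). Over all lists the median log2 fold change ran from -0.81 for stromal and endothelial markers to 1.74 for mast cell and basophil markers. Of 34 other haematopoietic transcription factors and cofactors tested, 0 passed edgeR's or DESeq2's adjusted threshold, 3 were higher and 0 lower at an unadjusted p below 0.05, beside 7.68% higher and 6.83% lower over all genes, and the median log2 fold change was 0.03. Both NICcA libraries lay above all wild type libraries for 4 of the 34, beside 18.4% of all genes. They lay below all wild type libraries for 6 of the 34, and the share of all genes below was not counted. Runx3, a Runt factor of lymphocytes and dendritic cells, had 5.83 and 6.02 CPM in NICcA, against 3.40, 2.95 and 0.865 CPM in wild type (log2 fold change 1.30, SE 0.52; edgeR adjusted p = 0.34). Zfpm1, the cofactor of Gata1 and Gata2 also called Fog1, had 5.18 and 4.82 CPM in NICcA, against 2.81, 3.96 and 2.67 CPM in wild type (log2 fold change 0.67, SE 0.23; edgeR adjusted p = 0.32). Etv6, an ETS factor needed by stem cells, had a log2 fold change of 0.43 (SE 0.15; edgeR adjusted p = 0.32). In these 3, chosen for their small p, the groups did not overlap.

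Of 22 receptors, ligands and surface proteins of progenitors tested, 0 passed edgeR, 5 were higher and 3 lower at an unadjusted p below 0.05, beside 7.68% higher and 6.83% lower over all genes, and the median log2 fold change was 0.05. Both NICcA libraries lay above all wild type libraries for 4 of the 22, beside 18.4% of all genes, and below them for 6 of the 22. DESeq2 passed 2 as higher (Itga2b and Slamf1) and 1 as lower (Il7r), beside 2.09% higher and 2.08% lower over all entries. Itga2b, the integrin chain of megakaryocytes and early progenitors also called CD41, had 9.12 and 8.11 CPM in NICcA, against 4.39, 3.41 and 2.85 CPM in wild type (log2 fold change 1.28, SE 0.22; edgeR adjusted p = 0.27, DESeq2 adjusted p = 0.00019). Il7r, the interleukin 7 receptor, had 85.0 and 74.5 CPM in NICcA, against 138, 158 and 225 CPM in wild type (log2 fold change -1.12, SE 0.23; edgeR adjusted p = 0.27, DESeq2 adjusted p = 0.00093). Procr, the endothelial protein C receptor of stem cells, had 173 and 20.5 CPM in NICcA, against 16.8, 28.0 and 16.9 CPM in wild type. Only NICcA replicate 2 was high.

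**Figure D4:**
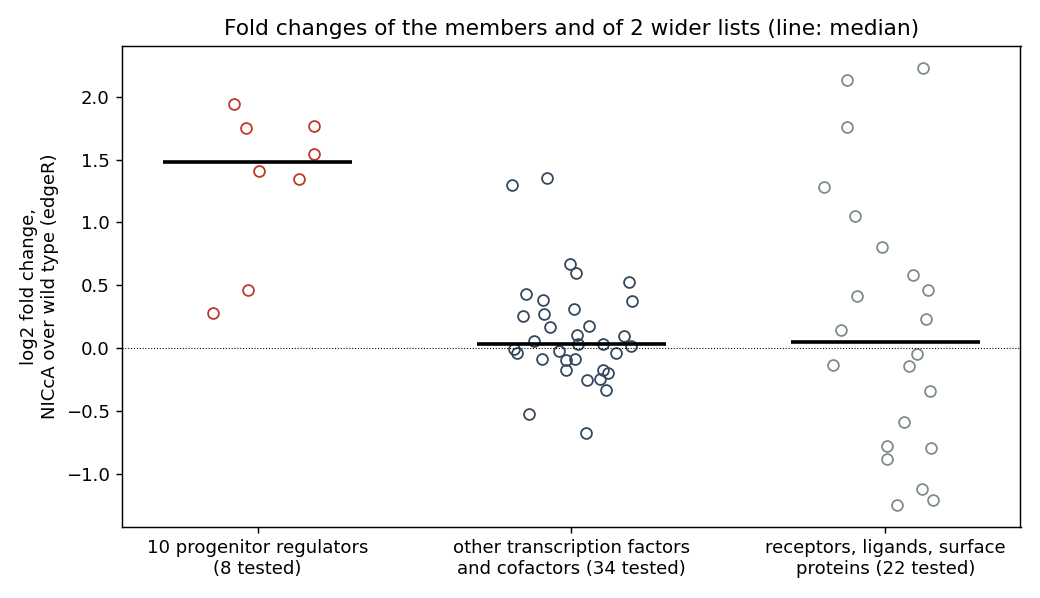
Log2 fold change of NICcA over wild type (edgeR) for the 8 progenitor genes tested, 34 other transcription factors and cofactors, and 22 receptors, ligands and surface proteins. Each circle is 1 gene and the line is the median, 1.48 for the progenitor genes, 0.03 and 0.05 for the wider lists.

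The genes whose profile over the 5 libraries was closest to each of the 3 highest genes by mean RPKM were found by the distance between log2 CPM profiles, each centred and scaled to the same length, among 11250 candidates. For Cd34 they were Tyms (distance 0.0150), Tipin (0.0229) and Rps4x (0.0283); Tyms, thymidylate synthase, had 14.2 and 13.6 CPM in NICcA, against 12.0, 8.20 and 5.83 CPM in wild type. For Cebpe they were Cacnb2 (0.0434), Cstf2 (0.0536) and Lrrc18 (0.0595). For Plac8 they were Dbr1 (0.0479), Snn (0.0766) and Myc (0.0899); Myc had 13.5 and 11.8 CPM in NICcA, against 8.19, 8.68 and 8.18 CPM in wild type. With 5 libraries, many genes have similar profiles.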

How the data were processed

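Read counts and RPKM values per RefSeq transcript (27457 entries) are the authors' deposited values, per the file headers; a second deposited table holds RPKM alone (64528 entries). Bowtie 0.12.2 and mm8 appear in the submitters' processing notes. No counter or strand setting is given in the sources used here, so overlapping and antisense reads cannot be told apart. Promoters are from GRCm38.p6. Counts of all 5 libraries were tested with edgeR 4.0.16 (R 4.3.3: TMM, filterByExpr, glmQLFit, glmQLFTest, genotype only) over 18267 entries, Benjamini-Hochberg threshold 0.05; common biological coefficient of variation 22.5%. SE is the absolute log2 fold change over the root of the F statistic. CPM is TMM-scaled; log2 CPM used a prior count of 2. The fit was tested on simulated data. Alternatives: other scalings and filters, DESeq2 1.42.0, limma 3.58.1 (voom, and log2(RPKM + 1) or + 0.1), replicate number as a term, each library left out, the second entry of a gene. All 10 genes are named, and of each other list up to 3 with the smallest p at a mean of at least 1 CPM were eligible; others named were chosen after their values were seen. The members and lists were chosen with earlier results of these data known.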

Additional observations from a re-analysis of the deposited data

How the results depend on the processing

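Of the 123 alternative log2 fold changes of the 8 genes, 122 kept their direction and their side of the threshold and 0 reversed. These values are not independent. They include the second entries of 5 genes, which share reads with the kept ones. The log2(RPKM + 1) fits to the 2 deposited tables gave the same log2 fold changes. Most fits called few entries in all, so keeping the side of the threshold says little. The number of calls over all entries moved more. edgeR called 4 transcript entries in all (2646 at an unadjusted p below 0.05). It called 12 with no low-count filter, DESeq2 called 747 (374 higher, 373 lower in NICcA), and limma called 2 with voom and 2 in each fit to log2 RPKM. Leaving out each library in turn gave 0 to 54 calls: 54 without NICcA replicate 3, 0 without NICcA replicate 2 (792 at an unadjusted p below 0.05) or wild type replicate 2 (2244), 7 without wild type replicate 3 and 3 without wild type replicate 1. Of the 8 genes, edgeR called 0 (5 at an unadjusted p below 0.05) and DESeq2 called 1, Plac8, with a log2 fold change of 1.75 and an adjusted p of 0.0012. The cause was not tested.

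The replicate block, with replicate number as a term, gave 0 calls in edgeR (3417 at an unadjusted p below 0.05). Labels do not say that a number marks a shared animal or batch, and only 2 numbers are shared. Deviations from the group means correlated at 0.200 for replicate 2 and 0.166 for replicate 3. With 2 NICcA libraries their deviations mirror each other, so the values for crossed numbers, -0.166 and -0.200, were fixed by these. Wild type replicate 1 has no NICcA partner, so with replicate number as a term it does not enter the comparison. The log2 fold change was then 2.62 for Cd34 (edgeR adjusted p = 0.097), 2.93 for Gata2 (edgeR adjusted p = 0.095) and 1.99 for Cebpe (edgeR adjusted p = 0.097). It was 1.74 for Myb, 1.68 for Plac8, 1.66 for Gfi1, 0.63 for Meis1 and 0.44 for Kit. Leaving out wild type replicate 1 without that term gave 2.50 for Cd34, 2.88 for Gata2 and 2.0 for Cebpe. Leaving out libraries gave log2 fold changes of 1.11 to 2.50 for Cd34, 0.02 to 0.50 for Kit, 1.45 to 2.88 for Gata2, 1.13 to 1.73 for Myb, 0.34 to 0.63 for Meis1, 0.97 to 2.29 for Gfi1, 1.07 to 2.0 for Cebpe and 1.31 to 2.09 for Plac8. Gfi1 had no value under a minimum of 1 CPM, and Gfi1, Meis1 and Myb had none in the RPKM fits, being below the RPKM minimum. Gata1 and Hoxa9, with 0 to 13 counts per library, had too few counts to be tested.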

Other observations

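Some genes outside the 10 differed strongly between libraries of a group and were picked after their values were seen. Ly6a, the stem cell antigen Sca-1, had 6810 and 1839 counts in NICcA and 1883, 1061 and 615 counts in wild type, so NICcA replicate 2 alone was far above the rest, as for Procr. Hdc, the histamine-forming enzyme of mast cells and basophils, had 25.8 and 6.40 CPM in NICcA, against 5.41, 2.55 and 1.12 CPM in wild type. The groups did not overlap for Hdc (log2 fold change 2.41, SE 0.77, edgeR adjusted p = 0.31). Collagen genes of fibroblasts were high in wild type replicate 1 alone: Col3a1 had 2 and 1 counts in NICcA and 419, 2 and 1 counts in wild type, and Col1a2 had 4 and 8 counts in NICcA and 311, 0 and 9 counts in wild type. Wild type replicate 1 was also the wild type library with the highest Cd34, Gata2, Myb, Meis1 and Cebpe; whether the collagen signal and these levels are linked was not tested.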
